A study of Mus musculus with 24 samples.

Results

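The 10 genes for costimulatory and inhibitory surface molecules described here were followed through 24 RNA-seq libraries of bone marrow-derived macrophages (BMDMs). They are 10 of the 55421 genes in the count table and were chosen by name, for their role, with no threshold on a measured value: *Cd80*, *Cd86*, *Icosl*, *Cd274* (PD-L1), *Pdcd1lg2* (PD-L2), *Vsir* (VISTA), *Cd200*, *Cd200r1*, *Havcr2* (TIM-3) and *Sirpa*. The study asked whether the aryl hydrocarbon receptor (AhR), a ligand-activated transcription factor, governs how alveolar macrophages make lipid mediators. Its RNA-seq arm compared gene expression of wildtype (WT) cells and of cells that lack AhR, at rest and after lipopolysaccharide (LPS), a bacterial ligand of TLR4. There were 4 groups of 6 libraries each: WT unstimulated, AhR-KO unstimulated, WT LPS and AhR-KO LPS. All 4 shared a culture of bone marrow in 10 ng/ml GM-CSF and 2 ng/ml TGF-β, which is meant to give alveolar-like macrophages. The LPS groups received 97 EU/ml LPS from day 6 of differentiation for 24 h. The protocol given for every library also lists the calcium ionophore A23187, 5 µM for 10 min, before harvest.

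The knockout is the whole-body germline allele Ahr tm1Bra of a B6.129 strain, so the bone marrow precursors lacked AhR as well, and wildtype mice were C57/B6/J. The labels give neither age nor sex, and they do not say whether an unstimulated and an LPS culture came from the same animal. P-values therefore measure the spread between these libraries. Libraries are called below by the group of their label and by their library number, from 17 to 40, as the replicate number.

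A T cell that meets antigen also reads a second set of signals from the surface of the presenting cell. CD80 and CD86 bind CD28, which promotes activation, and CTLA-4, which restrains it. ICOS ligand acts through ICOS, a relative of CD28. PD-L1 and PD-L2 bind the inhibitory receptor PD-1, and VISTA restrains T cells and myeloid cells. Other pairs act on the macrophage itself: CD200 on a neighbouring cell engages the inhibitory receptor CD200R1, and SIRPα binds CD47, the signal that spares a healthy cell from being engulfed. TIM-3 is an inhibitory receptor of T cells that macrophages and dendritic cells also carry. On myeloid cells CD80, CD86 and PD-L1 are textbook targets of TLR4 signalling.

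*Cd274* and *Pdcd1lg2* are neighbours on chromosome 19 of mm10. *Cd274* lies at 29367455 to 29388095 and *Pdcd1lg2* at 29410919 to 29471161, both on the plus strand and 22.8 kb apart. Chromosome 16 carries *Cd86* (36603869 to 36666081, minus), *Cd80* (38455561 to 38496335, plus), *Cd200r1* (44765736 to 44794978, plus) and *Cd200* (45382135 to 45409053, minus). *Cd200* and the gene of its receptor are 587 kb apart. *Vsir* (60346851 to 60372684, plus) and *Icosl* (78069302 to 78083913, plus) lie on chromosome 10, *Havcr2* (46454935 to 46481255, plus) on chromosome 11 and *Sirpa* (129592835 to 129632228, plus) on chromosome 2. Each value below sums the reads over all exons of a gene, untranslated regions included. A long antisense gene, A930007I19Rik, overlaps *Pdcd1lg2* on the other strand with 140469 counts over the 24 libraries, *Cd274* lies opposite AC119228.1, which had 944, and *Vsir* opposite Cdh23, which had 299. The library kit keeps strand and the authors counted by strand.

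Of the 10 genes, 7 had a promoter window in the RefSeq table of GRCm38.p6. The 250 bases before the start are shown for the 4 of these 7 that LPS raised in both genotypes, in the direction of transcription, with the match to a searched motif in capitals.

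Cd80: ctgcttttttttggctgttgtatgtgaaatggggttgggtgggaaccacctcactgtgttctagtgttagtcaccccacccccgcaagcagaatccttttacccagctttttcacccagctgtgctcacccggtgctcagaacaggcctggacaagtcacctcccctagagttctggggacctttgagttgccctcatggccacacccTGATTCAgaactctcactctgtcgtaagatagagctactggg

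Cd274: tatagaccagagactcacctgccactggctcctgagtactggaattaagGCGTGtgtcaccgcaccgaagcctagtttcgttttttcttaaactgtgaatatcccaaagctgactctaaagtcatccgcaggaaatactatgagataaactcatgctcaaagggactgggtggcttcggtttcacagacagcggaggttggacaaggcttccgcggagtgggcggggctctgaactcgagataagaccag

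Pdcd1lg2: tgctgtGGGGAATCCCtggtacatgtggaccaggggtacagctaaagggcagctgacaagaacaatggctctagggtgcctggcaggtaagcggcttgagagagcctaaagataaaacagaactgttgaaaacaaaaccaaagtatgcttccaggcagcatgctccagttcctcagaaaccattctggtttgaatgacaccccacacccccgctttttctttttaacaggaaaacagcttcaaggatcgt

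Cd200: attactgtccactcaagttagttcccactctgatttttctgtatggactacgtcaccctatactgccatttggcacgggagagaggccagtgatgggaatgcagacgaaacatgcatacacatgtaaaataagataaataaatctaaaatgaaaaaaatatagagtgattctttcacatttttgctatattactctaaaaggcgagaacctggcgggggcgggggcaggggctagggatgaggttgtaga

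The windows lie at chr16:38458683-38458932 (plus) for *Cd80*, chr19:29367188-29367437 (plus) for *Cd274*, chr19:29410669-29410918 (plus) for *Pdcd1lg2* and chr16:45409054-45409303 (minus) for *Cd200*. The 5 motifs below were searched on both strands: the AhR/ARNT core GCGTG, the NF-kB motif, the ISRE, the GAS element (TTCNNNGAA) and AP-1 (TGANTCA). *Cd274* held the AhR/ARNT core 201 to 197 bases before its start, a motif present in 28.2% of all 32851 windows. *Pdcd1lg2* held the NF-kB motif at 244 to 235 bases, which 7.25% of windows hold, and *Cd80* an AP-1 match at 42 to 36 bases, found in 6.75%. No searched letters occurred in the *Cd200* or *Vsir* window. *Icosl* had an NF-kB match at 111 to 102 bases and *Havcr2* an AP-1 match at 200 to 194. The ISRE and GAS letters, in 2.98% and 7.02% of windows, occurred in none of the 7. These matches describe letters, not occupied sites. The RefSeq starts used for the *Cd80* and *Icosl* windows lie inside the genes as annotated in the count table.

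Library depth ranged from 45106052 to 76992663 counts. Levels are CPM (reads of a gene per 1000000 counted) on library sizes scaled by TMM, and all 10 genes passed the filter on low counts among 16593 tested genes. *Ahrr*, a classical AhR target, had 13.3 to 96.6 CPM in the WT libraries and at most 1.05 CPM in the AhR-KO libraries. *Ahr* itself averaged 28.3 ± 12.2 (SD) CPM in WT and 7.42 ± 2.39 in AhR-KO cells without stimulation, but 16.8 ± 7.63 and 43.1 ± 16.2 after LPS (n = 6 each). Whole-gene counts include exons outside the deleted part and thus check nothing of the deletion. Macrophage markers were abundant in every library (8 genes, summed 14052 to 33719 CPM), and of the 8 alveolar macrophage markers only *Krt79* averaged under 1 CPM, after LPS. T, B and NK cell markers summed to at most 5.90 CPM. Dendritic cell, neutrophil, mast cell and basophil, and alveolar macrophage markers differed between the genotypes and stand beside the results they touch. Single markers of other lists were also called: *Pecam1* (endothelial) was lower in AhR-KO cells at rest, and *Fcgr1* (macrophage), *Klrb1c* (NK cell) and *Dcn* (fibroblast, 0.822 CPM in WT and 11.9 in AhR-KO cells) were higher after LPS. Consecutive library numbers form 3 runs of 8 (17 to 24, 25 to 32, 33 to 40) with 2 libraries of each group, and the slope of log2 CPM on gene length averaged 0.472, 0.692 and 0.352 in them. The labels do not call these runs batches.

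**Figure D1:**
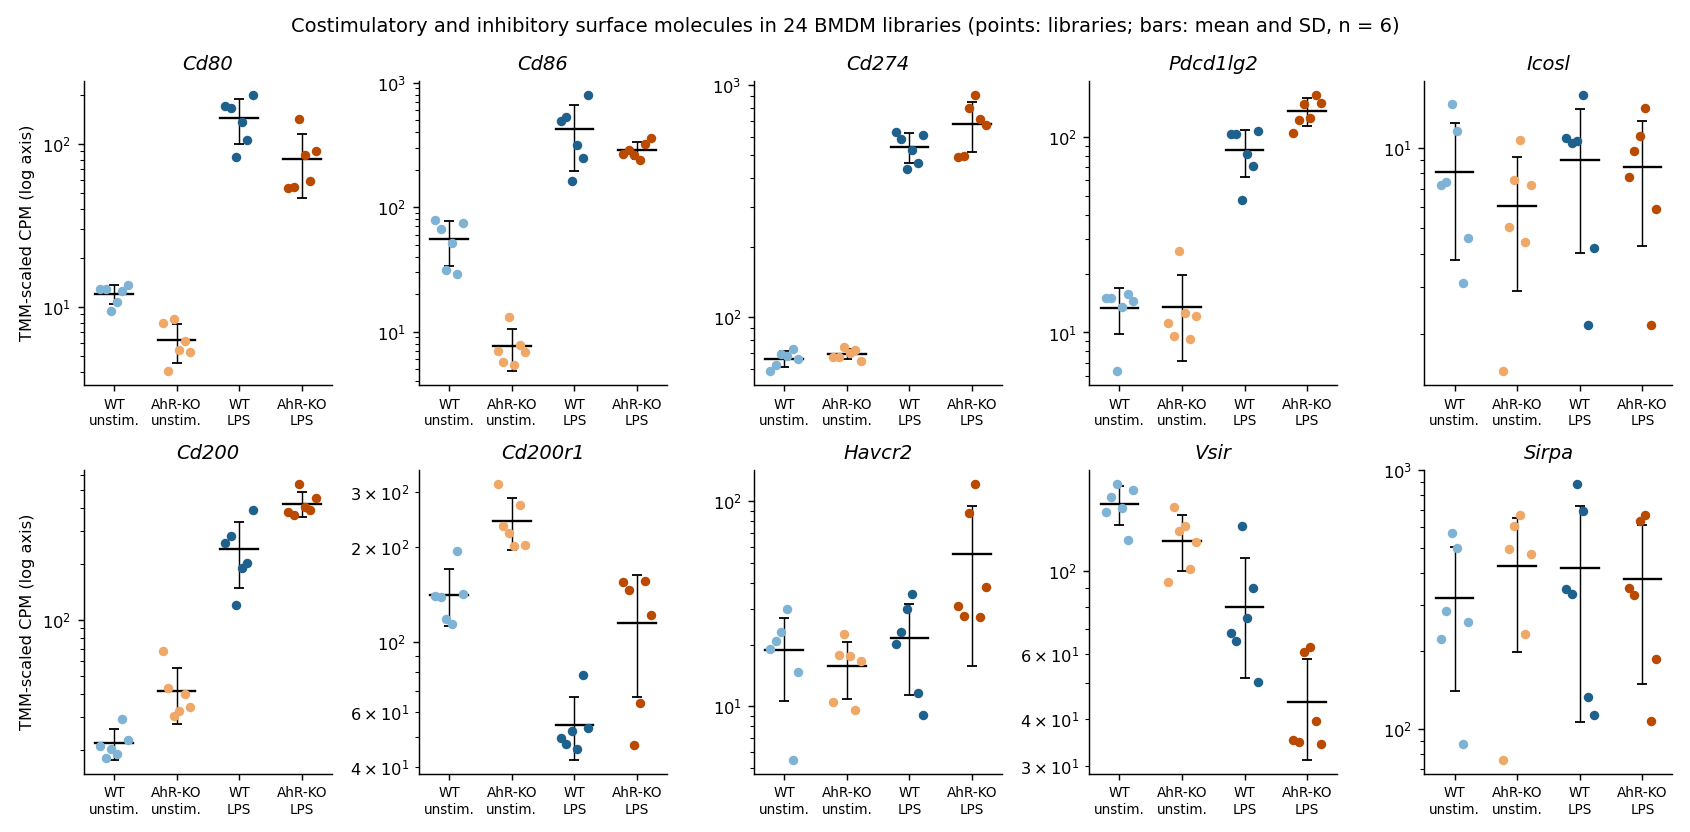
Level of each of the 10 genes in the 24 libraries, in TMM-scaled CPM on a log axis, for WT and AhR-KO BMDMs without stimulation and after LPS. Points are libraries in order of library number, and bars give the mean and SD of 6 libraries. *Cd86* is the gene whose unstimulated groups lie farthest apart, at 29.2 to 78.5 CPM in WT and 5.38 to 13.2 CPM in AhR-KO cells.

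*Cd86* was the one member that differed by the full criterion between the genotypes at rest: it was 7.21-fold lower in AhR-KO cells. *Cd80*, which shares its receptors, was 1.92-fold lower, and *Cd200* was 1.90-fold higher, both with an adjusted p under the threshold but under the 2-fold minimum. These 3 of 10 passed the threshold on the adjusted p, as 6.12% of all tested genes did. A gene was called when its adjusted p was at most 0.05 and its fold change at least 2, by edgeR's quasi-likelihood test over all 24 libraries and Benjamini-Hochberg adjustment over all tested genes. Thus 1 of 10 members was called, where 4.48% of all tested genes were. The count was 2 without any one of replicates 19, 25 and 27, through *Cd80*, or without replicate 33, through *Cd200*. The adjusted p of *Cd80* rose above the threshold without replicate 20 (0.054) and with limma-voom (0.057). The median log2 fold change of the 10 was -0.12, against -0.01 for all tested genes.

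In WT unstimulated libraries *Cd86* stood at 29.2 CPM at the lowest, 58.8 at the median and 78.5 at the highest, and in AhR-KO libraries at 5.38, 6.94 and 13.2. Every AhR-KO library was below every WT library. The log2 fold change was -2.85 with a standard error (SE) of 0.34 (adjusted p = 5.2e-06), and within the 3 runs it lay between -3.42 and -2.18. Replicate 27 was the highest of the AhR-KO libraries, and replicates 25 and 33 were the lowest of the WT libraries.

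*Cd80* had 9.40 CPM at the lowest, 12.6 at the median and 13.6 at the highest in WT libraries, against 4.04, 5.83 and 8.42 in AhR-KO libraries. These ranges did not overlap either. Its log2 fold change was -0.94 ± 0.24 (SE) with an adjusted p of 0.018, between -1.12 and -0.53 within the runs. *Cd200* and *Cd200r1* were the other members with separate ranges, which makes 4 of 10, where 5.15% of all tested genes had groups that did not overlap.

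*Cd200* lay above the WT range in all AhR-KO libraries, with 18.1, 20.6 and 29.4 CPM (lowest, median, highest) in WT and 30.3, 36.9 and 67.7 in AhR-KO cells. The adjusted p was 0.012 for a log2 fold change of 0.92 ± 0.23 (SE). *Cd200r1*, its receptor, had 114, 139 and 195 CPM in WT and 201, 228 and 318 CPM in AhR-KO libraries. The groups lay next to each other without overlap, and the test gave a log2 fold change of 0.77 ± 0.24 (SE) with an adjusted p of 0.059. The adjusted p of *Cd200r1* ran from 0.0010 to 0.080 over the other settings, and from 0.015 to 0.13 with one library left out. Its log2 value was at most 0.89. Both genes were higher in AhR-KO cells in all 3 runs. The 8 alveolar macrophage markers summed to 6840 to 9333 CPM in WT and 8123 to 11223 CPM in AhR-KO unstimulated libraries, with 2 called higher, *Siglecf* and *Ear2*, and none lower. Their part in the *Cd200* and *Cd200r1* differences was not tested.

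*Cd274* hardly varied at rest. It spanned 58.6 to 73.3 CPM in WT and 64.7 to 74.3 CPM in AhR-KO libraries, with a log2 fold change of 0.07 ± 0.14 (SE) and an adjusted p of 1. *Pdcd1lg2* had a median of 14.7 CPM in WT and 11.7 in AhR-KO cells, and a log2 fold change of 0.01 ± 0.25 (SE). Its sign differed between runs. *Vsir*, with medians of 153 and 124 CPM, gave -0.33 ± 0.20 (SE) and an adjusted p of 0.60. For *Icosl*, *Havcr2* and *Sirpa* the standard errors of 0.49, 0.42 and 0.56 exceeded or matched the differences of -0.41, -0.25 and 0.40.

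Markers of other myeloid cells moved with genotype in the same libraries. The 10 dendritic cell markers summed to 100 to 330 CPM in WT and 26.1 to 108 CPM in AhR-KO unstimulated libraries, and of the 9 tested 6 were called lower and 1, *Clec9a*, higher. Means under 1 CPM were found for *Flt3*, *Xcr1*, *Cd209a*, *Dpp4*, *Itgae* and *Cd207* in AhR-KO cells, and for *Xcr1* in WT cells. The 8 neutrophil markers summed to 1592 to 12651 CPM in WT and 240 to 796 CPM in AhR-KO libraries, with all 7 tested called lower. The 6 mast cell and basophil markers summed to 6.13 to 23.5 CPM in WT and 1.98 to 4.19 CPM in AhR-KO libraries, with 4 called lower. WT replicates 25 and 33, the lowest for *Cd86*, had the lowest dendritic cell sums of their group (133 and 100 CPM) and the highest neutrophil sums (4351 and 12651 CPM). In bulk RNA, fewer cells of a type and less RNA per cell cannot be told apart, and the part of any of these marker lists in the *Cd86* and *Cd80* differences was not tested.

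**Figure D2:**
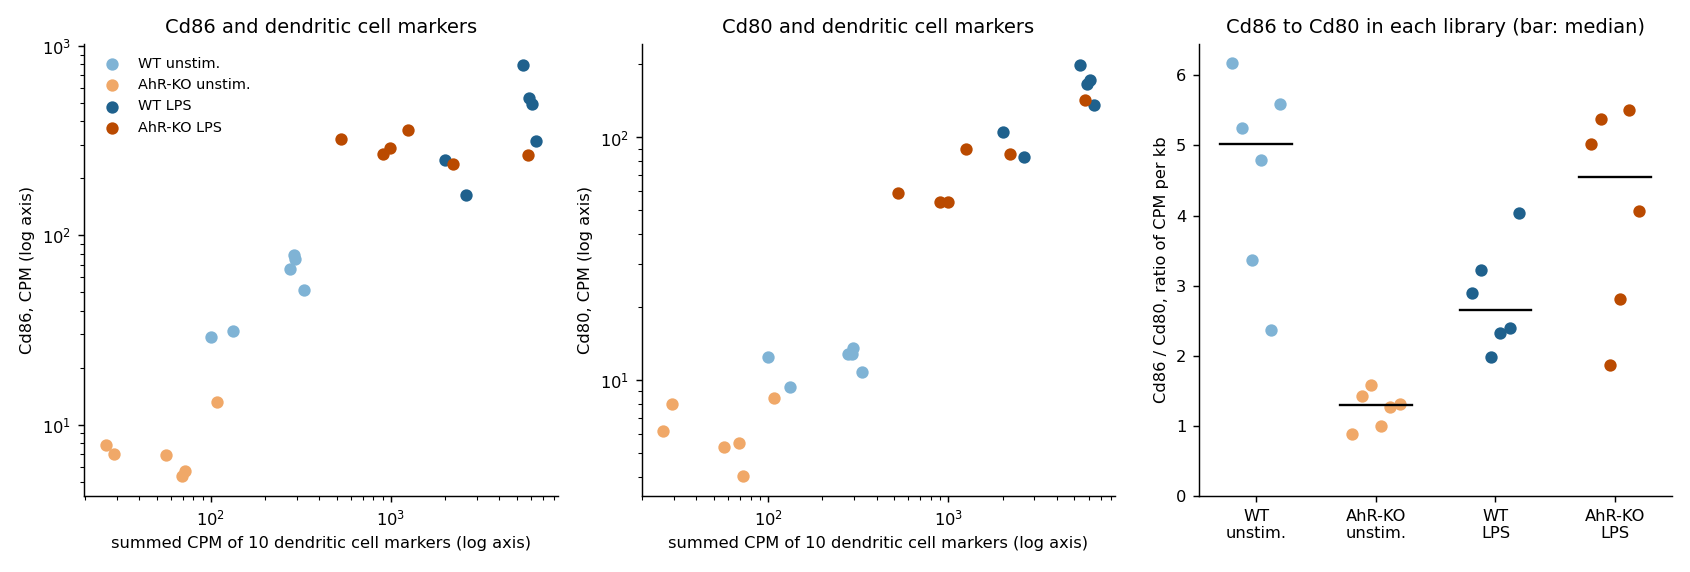
*Cd86* and *Cd80* in each of the 24 libraries against the summed CPM of 10 dendritic cell markers, both on log axes, and the ratio of *Cd86* to *Cd80* per kb of exon in each library by group on a linear axis with the group median as a bar. The AhR-KO unstimulated libraries lie lowest on all 3 vertical axes, with ratios of 0.885 to 1.58. AhR-KO LPS replicates 31 and 32, at 5757 and 2206 CPM, lie within the range of the WT LPS libraries for the marker sum.

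LPS raised most of the ligands in both genotypes. In WT cells *Cd80* rose 12.01-fold, *Cd200* 11.1-fold, *Cd274* 8.15-fold, *Cd86* 7.68-fold and *Pdcd1lg2* 6.43-fold, whereas *Cd200r1* fell 2.59-fold. In all 6 of the 10 were called, where 24.9% of all tested genes were (13.2% higher, 11.8% lower), and these 6 were also the members whose unstimulated and LPS ranges did not overlap (22.4% of all tested genes). In AhR-KO cells the same 5 ligands rose, *Cd86* by 37.9-fold, and *Havcr2* rose 3.52-fold, while *Vsir* fell 2.71-fold and *Cd200r1* 2.10-fold. That made 8 of 10 called, against 30.8% of all tested genes (15.1% higher, 15.7% lower), again with no overlap between the groups in these 8 (28.5% of all tested genes). The *Cd200r1* call fell short of 2-fold without replicate 19, 31 or 32 (log2 -0.97, -0.90 and -0.94), which leaves 7 of 10 in each case. The median log2 fold change of the 10 was 1.53 in WT and 2.55 in AhR-KO cells, against 0.03 and -0.03 over all tested genes. Marker lists moved with LPS as well. Of 8 alveolar macrophage markers 5 were called lower and 1 higher in WT, and 4 lower and 1 higher in AhR-KO cells. Of the 9 tested dendritic cell markers 4 were higher and 3 lower in WT, and 2 higher and 2 lower in AhR-KO cells, and of 7 neutrophil markers 3 and 2 were lower. Macrophage markers (8) gave 3 and 4 calls and mast cell and basophil markers (6) 3 and 2, all higher. The part of these lists in the LPS changes of the 10 genes was not tested. Both LPS comparisons use the unstimulated libraries that the genotype comparison at rest also uses.

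*Cd80* reached 83.1 CPM at the lowest, 152 at the median and 199.8 at the highest in WT LPS libraries, and 54.0, 72.2 and 143 CPM in AhR-KO LPS libraries. All 12 were far above the unstimulated maximum of 13.6 CPM. The log2 fold changes were 3.59 ± 0.27 (SE) in WT and 3.70 ± 0.27 in AhR-KO cells (adjusted p = 2.4e-10 and 8.0e-11), and their difference of 0.11 ± 0.34 had an adjusted p of 1.

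*Cd86* spread widely among WT LPS libraries, at 162 CPM in the lowest, 403 at the median and 797 in the highest. The AhR-KO LPS libraries lay between 237 and 362 CPM, with a median of 278, inside that range. Its LPS log2 fold change was 2.94 ± 0.34 (SE) in WT (adjusted p = 2.5e-07) and 5.24 ± 0.38 in AhR-KO cells (adjusted p = 7.4e-11). The interaction of genotype and LPS tests the difference of these directly: it was 2.30 ± 0.45 on the log2 scale, a factor of 4.93 between the fold changes, with an adjusted p of 0.0034. *Cd86* was the only member called for the interaction, where 4.3% of all tested genes were. The genotypes, apart at rest, overlapped after LPS, and the genotype difference there was -0.55 ± 0.32 (adjusted p = 0.34).

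For *Cd274* the WT LPS libraries had 435, 556 and 630 CPM (lowest, median, highest) and the AhR-KO LPS libraries 492, 692 and 908 CPM. Both groups stood far above the 74.3 CPM that no unstimulated library exceeded. The LPS changes were 3.03 ± 0.15 (SE) and 3.29 ± 0.15 on the log2 scale, the smallest errors of the 10 genes. *Pdcd1lg2* had 47.3, 92.4 and 107 CPM in WT and 104, 136 and 164 CPM in AhR-KO cells after LPS. Its LPS changes were 2.68 ± 0.27 and 3.33 ± 0.27, and the interaction of 0.65 ± 0.36 had an adjusted p of 0.48.

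*Cd200* climbed to 120, 232 and 392 CPM in WT and to 365, 398 and 541 CPM in AhR-KO cells, while its receptor gene went the other way. *Cd200r1* stood at 45.7, 50.8 and 78.8 CPM in WT LPS libraries and at 47.1, 134 and 157 CPM in AhR-KO LPS libraries. The log2 changes of *Cd200r1* were -1.37 ± 0.24 (SE) in WT and -1.07 ± 0.24 in AhR-KO cells. Per kb of exon, the ratio of *Cd200* to *Cd200r1* lay between 0.132 and 0.214 in all 12 unstimulated libraries and between 2.33 and 11.6 in all 12 LPS libraries.

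*Vsir* was lower after LPS in both genotypes, from a median of 153 to 71.6 CPM in WT and from 124 to 37.4 CPM in AhR-KO cells. The WT groups overlapped through replicate 29, which at 132 CPM exceeded the lowest unstimulated library. In AhR-KO cells the change was -1.44 ± 0.21 (SE, adjusted p = 3.8e-06). In WT cells it was -0.92 ± 0.20 with an adjusted p of 9.1e-04, short of the 2-fold minimum, and -1.12 (adjusted p = 5.2e-05) without replicate 29. The interaction of -0.52 ± 0.29 had an adjusted p of 0.49.

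*Havcr2* had 9.11, 21.6 and 35.2 CPM in WT LPS libraries, close to its 5.47, 19.9 and 29.8 CPM at rest. AhR-KO libraries stood at 9.59, 17.1 and 22.5 CPM at rest and at 27.3, 34.5 and 122 CPM after LPS, without overlap. Replicates 31 and 32, with 87.3 and 122 CPM, were far above the other 4 AhR-KO LPS libraries, of which the highest had 38.3 CPM. The LPS change was 0.19 ± 0.42 (SE) in WT (adjusted p = 0.77) and 1.82 ± 0.43 in AhR-KO cells (adjusted p = 0.0012). The interaction, 1.63 ± 0.59, was not called (adjusted p = 0.15), but it was called when the run entered the model as a factor (1.46, adjusted p = 0.018) or when the slope on gene length did (1.67, adjusted p = 5.9e-04). Of all 16593 tested genes 713 were called for the interaction without these terms, 1201 with the run and 2872 with the slope.

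*Icosl* and *Sirpa* gave no LPS call. *Icosl* was the lowest of the 10 per kb in each group, with medians between 6.13 and 10.5 CPM in the 4 groups. *Sirpa* had medians between 272 and 483 CPM and a spread within groups of up to 8.82-fold.

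**Figure D3:**
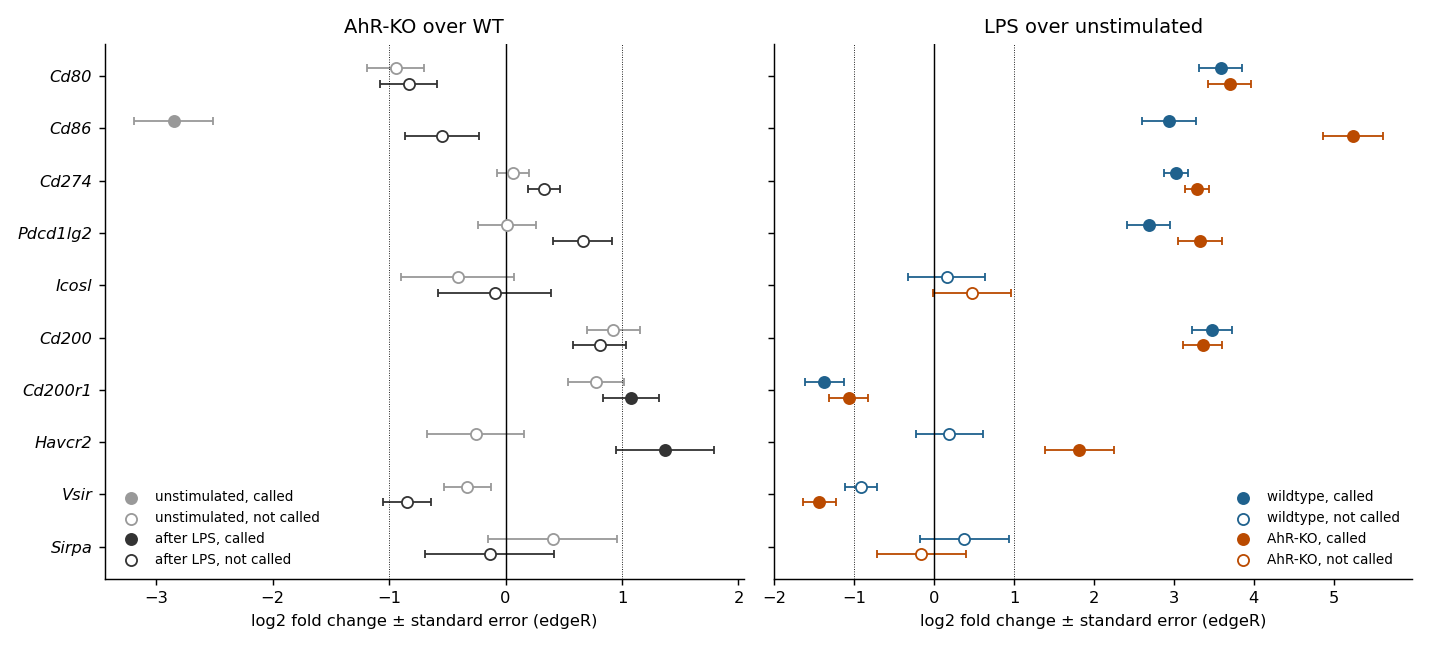
Log2 fold changes of the 10 genes with their standard errors from edgeR, for AhR-KO over WT without stimulation and after LPS (left) and for LPS over unstimulated in WT and AhR-KO cells (right). Filled points were called (adjusted p at most 0.05 and at least 2-fold), open points were not, and dotted lines mark the 2-fold minimum. *Cd86* is the outermost point in the left panel at -2.85 and in the right panel at 5.24.

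After LPS *Havcr2* was 2.59-fold and *Cd200r1* 2.11-fold higher in AhR-KO cells, and for neither was the interaction called. *Cd200*, 1.75-fold higher, *Vsir*, 1.80-fold lower, and *Cd80*, 1.78-fold lower, had adjusted p-values under the threshold without reaching 2-fold. Thus 2 of 10 were called, where 8.36% of all tested genes were, and 5 of 10 passed on the adjusted p alone, where 12.6% did. No member had groups without overlap, where 7.11% of all tested genes did, and the median log2 fold change was 0.12 against -0.05 over all tested genes.

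The call of *Havcr2* (1.37 ± 0.42 SE, adjusted p = 0.033) rested on single libraries. It was lost with the leaving out of any one of replicates 21, 22, 31, 32, 37 and 38, and without replicate 32 the log2 fold change was 0.97 (adjusted p = 0.14). Within the runs it lay between 0.43 and 1.66, always higher in AhR-KO cells. Over the other settings, without a library left out one at a time, it lay between 1.11 and 1.48. The adjusted p there ran from 1.5e-05 to 0.11.

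*Cd200r1* gave 1.08 ± 0.24 (SE) with an adjusted p of 0.0032. All but 2 of the 6 AhR-KO LPS libraries, at 122 to 157 CPM, were above all WT LPS libraries, and replicates 31 and 32, at 47.1 and 64.1 CPM, lay within the WT range. The same replicates were the highest for *Havcr2*. The difference fell just under 2-fold without any one of replicates 23, 24 and 39 (lowest log2 value 0.96). With limma-voom or total library size in place of the main test and scaling, neither *Havcr2* (adjusted p = 0.057 and 0.11) nor *Cd200r1* (log2 0.97 and 0.88) was called.

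*Cd80* after LPS was -0.83 ± 0.24 (SE, adjusted p = 0.024). Replicate 31 stood apart from the rest of its group at 143 CPM, and without it the difference was -1.07 (adjusted p = 0.0019) and would have been called. The adjusted p rose to between 0.055 and 0.060 without any one of replicates 21, 23, 24, 38 and 39, and to 0.095 in a fit of the 12 LPS libraries alone. The value was 0.05 within the run of libraries 25 to 32, and as low as -1.64 in another run. Dendritic cell markers summed to 2003 to 6391 CPM in WT LPS and 529 to 5757 CPM in AhR-KO LPS libraries. The 5757 CPM also belong to replicate 31, while the other 5 had at most 2206 CPM. Most of the sum was *Ccl22* and *Ccr7*, with means of 3311 and 1358 CPM in WT LPS cells, which activated macrophages can also express. Of the 9 tested dendritic cell markers 6 were called lower after LPS and none higher, and *Cd207* had no read in any AhR-KO LPS library. Neutrophil markers summed to 711 to 8401 CPM in WT and 135 to 1017 CPM in AhR-KO LPS libraries, with 5 of 7 called lower, and mast cell and basophil markers to 16.1 to 52.2 and 4.14 to 11.4 CPM, with 5 of 6 called lower. Alveolar macrophage markers summed to 3758 to 8202 CPM in WT and 7132 to 11016 CPM in AhR-KO LPS libraries, with 2 of 8 called higher, *Ear2* and *Car4*, and none lower. The part of these lists in the *Cd80*, *Havcr2* and *Cd200r1* differences was not tested.

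*Vsir* differed by -0.85 ± 0.20 (SE, adjusted p = 0.0059), between -0.92 and -0.69 within the runs, and its adjusted p was 0.052 in a fit of the 12 LPS libraries alone. Its ranges, 50.5 to 132 CPM in WT and 34.3 to 62.7 CPM in AhR-KO cells, overlapped through replicates 31 and 32 and WT replicate 38. *Cd200* gave 0.81 ± 0.23 (adjusted p = 0.018), and the ranges met in WT replicate 38, whose 392 CPM lay above the lowest AhR-KO values. *Pdcd1lg2* (0.66 ± 0.25, adjusted p = 0.093), *Cd274* (0.33 ± 0.14, adjusted p = 0.14), *Icosl* (-0.09 ± 0.49) and *Sirpa* (-0.14 ± 0.56) were above the threshold in the main fit. Over all other settings the lowest adjusted p was 0.036 for *Pdcd1lg2*, 0.039 for *Cd274*, 0.58 for *Icosl* and 0.045 for *Sirpa*.

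With AhR-KO LPS replicate 31, highest of its group in dendritic cell markers, and WT replicates 33 and 37, highest in neutrophil markers, all left out, a choice made after seeing the data, the *Cd86* log2 values were -2.98 at rest and 2.40 for the interaction. At rest only replicate 33 enters, and as it was the lowest WT library for *Cd86* (29.2 CPM), leaving it out could only enlarge that difference. The count of members called at rest was then 2, since *Cd200* reached 1.02, where 823 of 16749 tested genes were called. Replicate 33 was also the highest WT library for *Cd200* (29.4 CPM), so leaving it out could only enlarge that difference too. After LPS the count was 2 as well (1550 of all tested genes), but with *Cd80* (-1.08) in place of *Havcr2* (1.12, adjusted p = 0.073). Replicate 31 was the highest AhR-KO LPS library for *Cd80* (143 CPM) and had a high 87.3 CPM for *Havcr2*. Leaving it out favours this exchange. The LPS counts were 7 in WT and 7 in AhR-KO cells, where 4162 and 5147 of all tested genes were called.

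*Sirpa*, *Icosl* and *Havcr2* varied with the run of the library. *Sirpa* had a median of 330 CPM in libraries 17 to 24, 652 in 25 to 32 and 159 in 33 to 40, *Icosl* 7.59, 11.3 and 4.32 CPM, and *Havcr2* 20.5, 29.8 and 13.2 CPM. After the group means were taken out, log2 levels of *Sirpa* over the 24 libraries had a Pearson r of 0.99 with the length slope of the library, *Icosl* 0.94 and *Havcr2* 0.86. *Vsir* had 0.62, *Cd200* -0.59 and *Cd200r1* -0.72, and *Cd274*, *Cd80*, *Pdcd1lg2* and *Cd86* between -0.20 and 0.06. The slope and each gene come from the same libraries and share their length composition. *Sirpa* after LPS had a sign that depended on the slope: -0.14 without it and 0.22 (adjusted p = 0.045) with it in the model.

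**Figure D4:**
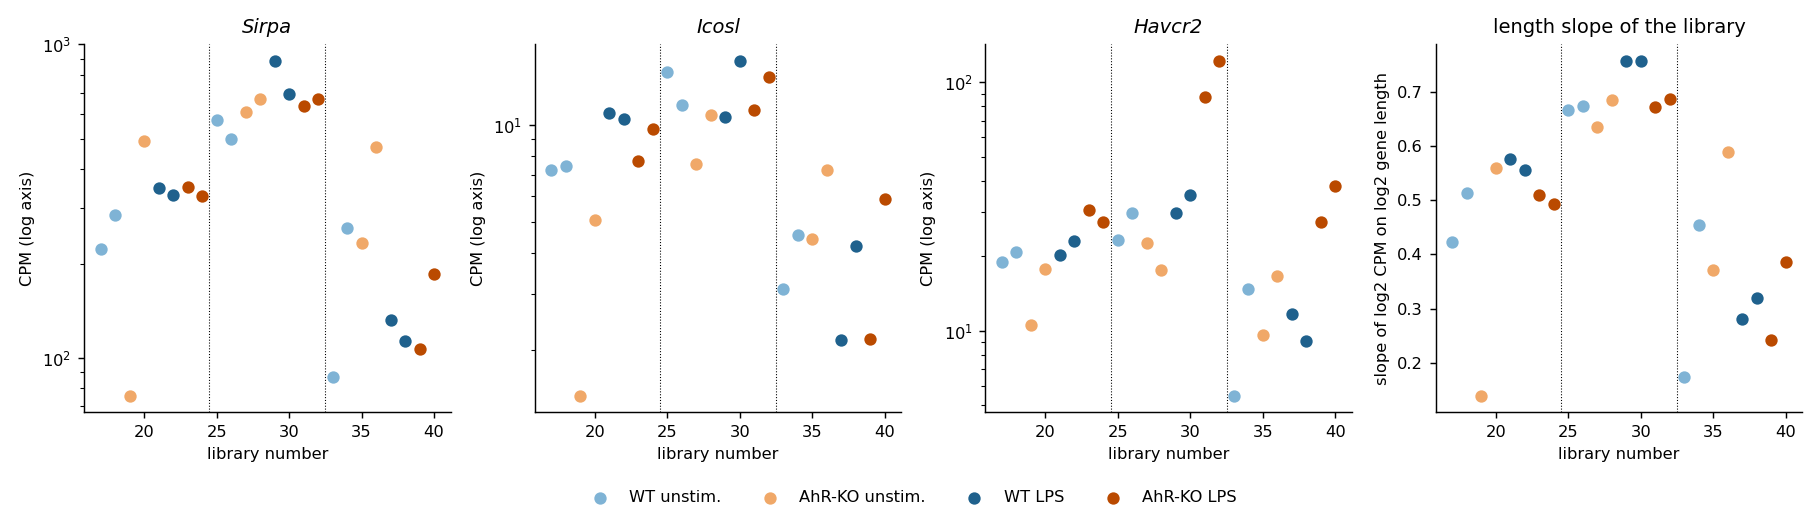
*Sirpa*, *Icosl* and *Havcr2* (CPM, log axis) and the slope of log2 CPM on log2 gene length, each against library number, coloured by group, with dotted lines between the 3 runs of 8 libraries. The medians of the 3 genes and the mean slope are highest in libraries 25 to 32 and lowest in libraries 33 to 40. *Sirpa* had a median of 652 CPM in libraries 25 to 32. For *Sirpa* and the slope only libraries 25 to 32 lie apart, and the other runs overlap almost fully with each other. For *Icosl* and *Havcr2* libraries 25 to 32 also overlap with another run.

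Levels were compared between genes only per kb of merged exon. In WT cells at rest *Sirpa* was highest at 65.4 ± 37.0 (SD) CPM per kb, then *Cd200r1* at 42.2 ± 8.65, *Vsir* at 30.1 ± 3.61, *Cd274* at 18.3 ± 1.44 and *Cd86* at 15.1 ± 5.89 (n = 6). *Havcr2* at 6.91, *Pdcd1lg2* at 6.80 and *Cd200* at 6.54 followed closely, above *Cd80* at 3.23 and *Icosl* at 1.75. Of these neighbours only *Vsir* and *Cd274*, and *Cd200* and *Cd80*, had ranges that did not overlap. AhR-KO cells at rest began with the same 4 genes, but *Cd86* came at rank 8 of 10 with 2.09 ± 0.78 CPM per kb.

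The order changed in part with LPS. *Cd274* led in WT at 149 ± 22.2 (SD) CPM per kb, before *Cd86* at 116 ± 63.1 and *Sirpa* at 84.9 ± 63.2, and no neighbours had separate ranges. In AhR-KO cells *Cd274*, at 187 ± 45.6, was followed by *Cd200* at 127 ± 19.6, *Cd86* at 79.3 ± 12.3, *Sirpa* at 77.3 ± 47.0 and *Pdcd1lg2* at 69.1 ± 11.3. Here *Cd200* and *Cd86*, *Pdcd1lg2* and *Cd200r1*, and *Vsir* and *Icosl* were the neighbours whose ranges did not overlap.

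The balance of the CD28 ligands can be read within each library. Per kb, *Cd86* stood at 2.37 to 6.18 times *Cd80* in WT unstimulated libraries and at 0.885 to 1.58 times in AhR-KO unstimulated libraries. After LPS the ratio was 1.98 to 4.04 in WT and 1.87 to 5.51 in AhR-KO cells. *Cd274* stood at 0.755 to 2.54 times *Cd86* in WT and at 5.71 to 13.2 times in AhR-KO cells at rest, and at 0.770 to 2.71 and 1.73 to 3.87 times after LPS. The genotypes were thus apart at rest and overlapped after LPS in both ratios. *Cd274* to *Pdcd1lg2* had medians between 2.49 and 3.40 in the 4 groups.

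The pathway around these genes was followed in 7 lists of related genes. Of 6 other B7 and butyrophilin genes 2 were tested, and LPS raised both in WT and 1 in AhR-KO cells, where 13.2% and 15.1% of all tested genes were called higher. *Btnl2* rose by 5.74 and 5.88 on the log2 scale, and *Cd276* by 1.31 in WT, with 0.53 (adjusted p = 0.33) in AhR-KO cells and an interaction of -0.78 that was not called (adjusted p = 0.74). *Btnl2* stayed low, with 0.0678 and 0.0858 CPM at rest, and was at 3.30 ± 1.66 (SD) CPM in WT LPS and 5.15 ± 2.89 in AhR-KO LPS cells. Neither was called between the genotypes, where 4.48% of all tested genes were at rest and 8.36% after LPS.

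Among 7 costimulatory and inhibitory receptors of T cells 5 were tested, and 2 were called lower in AhR-KO cells in each state, where 4.48% of all tested genes were called at rest and 8.36% after LPS. *Icos*, the receptor of ICOS ligand, had 16.8 ± 8.52 (SD) CPM in WT LPS and 0.261 ± 0.221 CPM in AhR-KO LPS cells, a log2 fold change between the genotypes of -5.98. At rest it had 0.482 and 0.00739 CPM. LPS raised it by 5.10 in WT (adjusted p = 2.4e-06). In AhR-KO cells it was called higher after LPS too (adjusted p = 1.9e-04), but the unstimulated group was at about 0 counts and overlapped the LPS group, so no fold is given. The other genotype calls, named after their values were seen, were *Cd28* at rest (1.48 ± 0.963 against 0.409 ± 0.166 CPM, SD) and *Pdcd1*, which encodes PD-1, after LPS (1.27 ± 0.737 against 0.00336 CPM). Of 6 T cell markers *Cd3e*, *Cd3d*, *Cd3g*, *Cd4* and *Cd8a* averaged under 1 CPM in all 4 groups, and *Lck*, a kinase of T cells, averaged 3.13 CPM in WT LPS and 3.05 CPM in AhR-KO LPS cells. Most tested dendritic cell, neutrophil, and mast cell and basophil markers were called lower in AhR-KO cells in both states. Their part in the *Icos*, *Cd28* and *Pdcd1* differences was not tested.

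Binding partners of the receptors, 6 tested of 7, gave no genotype call in either state, where 4.48% of all tested genes were called at rest and 8.36% after LPS. *Lgals9*, which encodes galectin-9, a ligand of TIM-3, rose with LPS from 102 ± 15.6 (SD) to 238 ± 61.0 CPM in WT and from 94.4 ± 30.7 to 459 ± 110 CPM in AhR-KO cells, and its interaction of 1.06 was called (adjusted p = 0.046). Between the genotypes *Lgals9* after LPS gave 0.95 on the log2 scale (adjusted p = 0.0035), just short of 2-fold. *Hmgb1*, a nuclear protein that TIM-3 also binds, fell with LPS by 1.52 and by 1.54 on the log2 scale. *Ceacam1* fell by 2.34 in AhR-KO cells, with -1.21 (adjusted p = 0.20) in WT and an interaction of -1.13 that was not called (adjusted p = 0.84). The ligand of SIRPα, *Cd47*, named after its values were seen, rose in AhR-KO cells from 425 ± 127 to 1009 ± 282 CPM (SD). In WT it had 489.5 ± 189 and 966 ± 381 CPM, a log2 change of 0.98 (adjusted p = 0.0040) just short of 2-fold, and the interaction was 0.27 (adjusted p = 0.97).

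The 15 phosphatases, adaptors and kinases of inhibitory receptors were all tested, and 2 rose with LPS in each genotype, a share near the 13.2% and 15.1% of all tested genes called higher. *Dok1*, an adaptor that damps kinase signalling and acts below CD200R, rose by 1.98 in WT and by 2.95 in AhR-KO cells on the log2 scale, and *Fyb* by 2.19 and 2.72. *Fyn*, a Src family kinase, was lower in AhR-KO cells after LPS (-1.68, adjusted p = 0.013). It was the only genotype call of this list, 0 of 15 at rest and 1 of 15 after LPS, where 4.48% and 8.36% of all tested genes were called.

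Of 15 other inhibitory receptors of myeloid cells, LPS changed 8 in WT (4 higher, 4 lower) and 12 in AhR-KO cells (7 higher, 5 lower), where 24.9% and 30.8% of all tested genes were called. *Cd72*, a receptor of the C-type lectin family, was the largest genotype difference of these lists at rest: 22.8 ± 10.4 (SD) CPM in WT and 0.333 ± 0.276 in AhR-KO cells. It rose with LPS in AhR-KO cells by 4.41 on the log2 scale, to 7.30 ± 1.86 CPM. The interaction of 5.28 (adjusted p = 7.0e-05) was larger than this rise, so the fitted change of *Cd72* in WT cells was a fall. *Siglecf*, an eosinophil and alveolar macrophage lectin, was higher in AhR-KO cells at rest (184 ± 30.95 against 62.0 ± 23.7 CPM) and changed with LPS by -3.06 and -3.92 on the log2 scale. *Siglece* rose by 2.05 in WT and by 1.97 in AhR-KO cells, *Cd300a* fell by 1.69 and by 2.00, and *Cd22* fell by 1.61 and by 2.71. Between the genotypes 2 of 15 were called at rest, these being *Cd72* and *Siglecf*, where 4.48% of all tested genes were, and 0 of 15 after LPS by edgeR at the criterion used here, where 8.36% were.

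Of 9 paralogs of the receptors 7 were tested, and 1 was called between the genotypes at rest and 2 after LPS, where 4.48% and 8.36% of all tested genes were. *Cd200r4*, an activating relative of CD200R1, fell with LPS as *Cd200r1* did, by 1.84 in WT and by 2.31 in AhR-KO cells on the log2 scale. *Cd200r2* was lower in AhR-KO cells, at rest by -1.16 (adjusted p = 0.030) and after LPS by -2.19 (adjusted p = 8.9e-05), opposite in sign to *Cd200r1*. It stayed low, with 3.77 ± 1.63 (SD) CPM in WT at rest. These receptors resemble each other in sequence, so reads could be assigned to the wrong member. *Sirpb1c* fell with LPS in AhR-KO cells (-1.05), with -0.71 (adjusted p = 0.11) in WT and an interaction of -0.34 that was not called (adjusted p = 0.97). *Timd2*, a relative of TIM-3 named after its values were seen, was the one paralog called higher in AhR-KO cells after LPS (2.12 ± 1.003 against 0.528 ± 0.271 CPM, SD), and at rest it was at 0 in every WT library.

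The 16 genes for interferon and NF-kB signalling and for PD-L1 protein stability were all tested. LPS raised 10 in WT and 11 in AhR-KO cells, where 2 fell. Of all tested genes 13.2% were called higher in WT, and 15.1% higher and 15.7% lower in AhR-KO cells. The median log2 fold change was 1.66 and 1.89 against 0.03 and -0.03 over all tested genes. *Socs1*, a feedback inhibitor of JAK-STAT signalling, was lower in AhR-KO cells at rest (8.40 ± 2.73 against 26.1 ± 4.24 CPM, SD), the only genotype call of the list there (1 of 16, where 4.48% of all tested genes were called), and reached 119 ± 24.7 and 120 ± 16.4 CPM after LPS. Its interaction was 1.63 (adjusted p = 5.9e-04). *Jak2* rose by 2.24 in WT and 2.82 in AhR-KO cells, and *Stat2* by 2.19 and 3.12. The 2 genes that fell in AhR-KO cells, named after their values were seen, were *Ifngr1* (-1.11), a chain of the interferon-γ receptor, and *Cmtm4* (-1.13).

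With group means taken out, the tested gene whose log2 level was most like that of *Cd86* over the 24 libraries was *Jaml* (Pearson r = 0.94). For *Cd274* it was *Dusp5* (0.86), for *Pdcd1lg2* *H2-Q7* (0.84) and for *Cd200* *Rras2* (0.92). *Sirpa* followed *Mroh1* (0.99), *Icosl* *Psip1* (0.96) and *Havcr2* *Anp32a* (0.94). Among the members, *Cd80* and *Cd86* had an r of 0.59, *Cd274* and *Pdcd1lg2* 0.37 and *Cd200* and *Cd200r1* 0.03, whereas *Icosl* and *Sirpa* had 0.92. All these values share libraries and their length composition and are descriptions.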

How the data were processed

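Polyadenylated RNA of 24 BMDM cultures, 6 per group, was sequenced with a directional library kit. The authors deposited raw counts per gene, made with featureCounts 2.0.1 (strand setting 2, mapping quality at least 1) from GSNAP alignments to mm10 with the Ensembl release 98 annotation, keeping uniquely aligned reads. Of the 55421 IDs, 55154 matched a symbol. The length column is the merged exon length written by the counter.

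Counts were filtered with filterByExpr (16593 genes), scaled with TMM and tested with edgeR 4.0.16 (robust quasi-likelihood F-test, R 4.3.3) in one model of 4 groups over 24 libraries, which share one estimate of the spread. A gene was called at adjusted p ≤ 0.05 with at least a 2-fold difference (any size for the interaction). The length slope of a library is that of edgeR's log2 CPM (prior count 1) on log2 gene length, and correlations used log2(CPM + 0.5). The test was checked on simulated counts. Alternatives were DESeq2 size factors, total library size, DESeq2 1.42.0, limma-voom 3.58.1, other filters, 12 libraries, run or length slope as a term, and each library left out. All 10 genes are named in all comparisons, and of the wider lists called genes with a mean of at least 1 CPM, at most 3 per list and comparison. The members and lists were chosen with earlier results of these data known. Motifs were searched in RefSeq promoter windows of GRCm38.p6; *Cd86*, *Cd200r1* and *Sirpa* had none there.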

Additional observations from a re-analysis of the deposited data

Results flagged for a closer look

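In 40 sets of 6 libraries, one for each gene and group, 6 had a library farther from the others than Dixon's 95% value for 6 samples allows, and chance gives about 1 in 20. AhR-KO unstimulated replicate 27 was high for *Cd86* (13.2 CPM) and for *Pdcd1lg2* (25.98 CPM), and WT unstimulated replicate 25 was low for *Pdcd1lg2* (6.33 CPM). AhR-KO unstimulated replicate 19 was high for *Cd200* (67.7 CPM). *Cd200r1* was high in WT unstimulated replicate 33 (195 CPM) and WT LPS replicate 37 (78.8 CPM), the libraries with the highest neutrophil marker sums of their groups (12651 and 8401 CPM). Replicate 27 had the highest dendritic cell marker sum of its group (108 CPM), and replicate 25 the second lowest of its own (133 CPM). Replicate 19 had the lowest length slope (0.139) and the fewest detected genes (17412) of all 24 libraries, and replicates 33 and 37 the lowest slopes of their groups (0.174 and 0.280). The part of these markers and of the slope was not tested.

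The LPS response of *Cd86* differed between the genotypes by an interaction of 2.30 on the log2 scale (adjusted p = 0.0034 by edgeR's quasi-likelihood test).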

How the results depend on the processing

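No paired analysis was possible because the groups share no replicate number, each library having its own from 17 to 40. Under the other settings, applied to each of the 10 genes in up to 5 comparisons, most kept direction and side of the threshold (493 of 530 without a library left out one at a time, 1167 of 1200 with one). The cause of the exceptions was not tested. Calls at rest numbered 1, and 3 with no minimum fold change, 2 with total library size, 2 with libraries 31, 33 and 37 left out together, and 1 to 2 with one library left out (2 without replicate 19, 25, 27 or 33). Over all 16593 tested genes 744 were called at rest, and 1015, 796 and 823 (of 16749) in the 3 settings first named. Without replicate 19, 25, 27 or 33 these were 750, 759, 760 and 796. Calls after LPS numbered 2, and 5 with no minimum fold change, 0 with limma-voom (3839 tested genes had an unadjusted p under 0.05), 1 with no filter, 1 with the length slope, 1 with the 12 libraries of the contrast, and 1 to 2 with one library left out (1 without replicate 21, 22, 23, 24, 32, 37, 38 or 39). Over all tested genes 1387 were called after LPS. The number was 2096 with no minimum fold change, 1431 with limma-voom, 1345 of 29741 with no filter, 2040 with the length slope and 1140 of 15058 with the 12 libraries. The interaction gave 1, and 2 with the run as a factor or the length slope, where 713, 1201 and 2872 of all tested genes were called. Under total library size *Cd80* reached -1.03 at rest and -1.05 after LPS, *Vsir* -1.07 after LPS and -1.27 with LPS in WT, and *Cd200r1* after LPS lost its call (0.88), as under limma-voom (0.97) and the length slope (0.96). *Havcr2* after LPS had an adjusted p of 0.11 with total library size, 0.057 with limma-voom and 0.052 with no filter, and the lowest over these settings was 1.5e-05. *Cd200r1* with LPS in AhR-KO cells fell short of 2-fold without replicate 19, 31 or 32 (-0.97, -0.90 and -0.94).

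Signs turned for values near 0. Total library size gave -0.014 for *Cd274* and -0.039 for *Pdcd1lg2* at rest, -0.19 for *Icosl* and -0.16 for *Havcr2* with LPS in WT, -0.028 for *Icosl* with LPS in AhR-KO cells and -0.022 for the *Cd80* interaction. The length slope gave 0.15 for *Icosl* and 0.22 for *Sirpa* after LPS, and -0.16, -0.013 and -0.091 for *Icosl*, *Havcr2* and *Sirpa* with LPS in WT. The interaction of *Cd200* was 0.0059 with limma-voom, and that of *Cd80* -0.15 without libraries 31, 33 and 37. With one library left out, the range was -0.28 (without replicate 27) to 0.10 for *Pdcd1lg2* at rest, -0.31 to 0.14 (30) for *Icosl* and -0.39 to 0.23 (29) for *Sirpa* after LPS, -0.079 (30) to 0.41 for *Icosl* and -0.0063 (30) to 0.37 for *Havcr2* with LPS in WT, -0.40 to 0.032 (39) for *Sirpa* with LPS in AhR-KO cells, and -0.13 (31) to 0.22 for *Cd80* and -0.25 to 0.076 (19) for *Cd200* in the interaction.

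Total library size moved the median log2 fold change of all tested genes to -0.26 after LPS, -0.31 with LPS in WT and -0.52 with LPS in AhR-KO cells, and the share of calls that were higher from 25.96% to 14.9%, 52.8% to 33.9% and 49.0% to 28.2%. In the interaction this share went from 45.4% to 31.4%. The length slope gave 36.3% after LPS. Interaction calls over all genes numbered 713, and 1125 with DESeq2, 1201 with the run as a factor and 2872 with the length slope. Without a minimum fold change 2096 genes passed after LPS against 1387, and 6305 with LPS in WT against 4137. At the depth of these libraries counting error is small beside the spread between libraries (biological coefficient of variation 49.1%).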
